A study of Macaca mulatta with 28 samples.

Results

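Interferon-induced and antigen presentation genes were described in brain tissue blocks of 28 male rhesus macaques, each with free access to ethanol. The set was a fixed list of 9 genes, MX1, IFI6, DDX60, ISG15, IFIT1, IFIT3, CD74, B2M and TAP1. The rule for the list used no measured value, but the list was chosen with earlier results of these data known. Of the 15521 genes in the deposited table, 8 were members, because IFIT1 had no row under that symbol. All 8 passed the filter on low values, which asked for 10 or more normalized reads in 5 or more libraries.

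Cells that sense viral nucleic acid release type I interferon, which binds a receptor on neighbouring cells and switches on a broad set of genes. MX1 traps viral nucleoproteins, IFI6 limits the membrane compartments in which some viruses replicate, DDX60 is a helicase tied to RNA sensing, ISG15 is a ubiquitin-like protein that is joined to other proteins, and IFIT3 belongs to a family that binds viral RNA. Antigen presentation displays peptides to T cells. B2M is the light chain of class I molecules and TAP1 is a subunit of the pump that carries their peptides into the endoplasmic reticulum. CD74, the invariant chain, guides class II molecules, and in healthy brain microglia and perivascular macrophages are its main source.

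The tissue was a dissected block that contained the central nucleus of the amygdala, a nucleus that links stress and reward, and each animal gave 1 library of ribosome-depleted total RNA. All animals, the reference groups included, were male and drank ethanol: about 90 days of induction on a 4% (w/v) solution, then over 12 months with access for 22 hours a day. There was no animal without ethanol. The study asked how long-term intake relates to transcript levels in the brain, and the labels put 10 animals in the low (LD), 5 in the binge (BD), 7 in the heavy (HD) and 6 in the very heavy (VHD) drinking category. VHD animals averaged more than 3 g/kg a day, with more than 4 g/kg on 10% or more of the open-access days. HD animals reached 3 g/kg on at least 20% of days, BD animals 2 g/kg on at least 55% of days with a yearly blood ethanol of at least 80 mg/dl, and LD animals none of these. HD and VHD together are called heavy here (13 animals), and LD and BD together low (15 animals).

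The animals came from 4 cohorts, which differed in age: cohort 4 (8 animals, on average 8.24 years at induction and 9.98 at the end), cohort 5 (7 animals, 5.63 and 7.15 years), cohort 7b (5 animals, 5.69 and 7.18 years) and cohort 7a (8 animals, 4.18 and 5.7 years). Cohort 5 held heavy animals only, and cohorts 4 and 7b held 1 heavy animal each. VHD animals were in cohorts 5 (4 animals) and 7a (2 animals), so VHD and LD met directly only in cohort 7a, 2 animals against 3. Cohort therefore entered every main fit as a term. Age is given as a cohort average, so it cannot be told apart from other differences between cohorts. Cohorts 5 and 7b were close in age.

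Library depth ran from 1910514 to 25928489 reads within genes, with a median of 16444833, and the 3 shallowest were BD replicate 1, LD replicate 1 and HD replicate 1. A group of 3 VHD libraries stood apart in their CHAT level. CHAT, the enzyme that makes acetylcholine in cholinergic neurons, reached 1687, 1566 and 1450 normalized reads in VHD replicates 3, 4 and 5, and the next highest of the 28 libraries, an LD animal, had 826. The summed level of 14 central amygdala markers ran from 16011 to 39885 (median 21810) in VHD and from 21511 to 65094 (median 36327) in LD. The markers were PENK, PRKCD, SST, CRH, TAC1, NTS, PDYN, DRD1, DRD2, CARTPT, CALCRL, GAD1, GAD2 and SLC32A1. Folds of VHD over LD and correlations between members are given with and without these 3 libraries (called CHAT-rich), a choice made after seeing the data. Leaving them out keeps VHD replicates 1, 2 and 6, of which only VHD replicate 6 shares a cohort with LD animals. In bulk tissue, fewer cells of a type and less RNA per cell cannot be told apart.

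**Figure D1:**
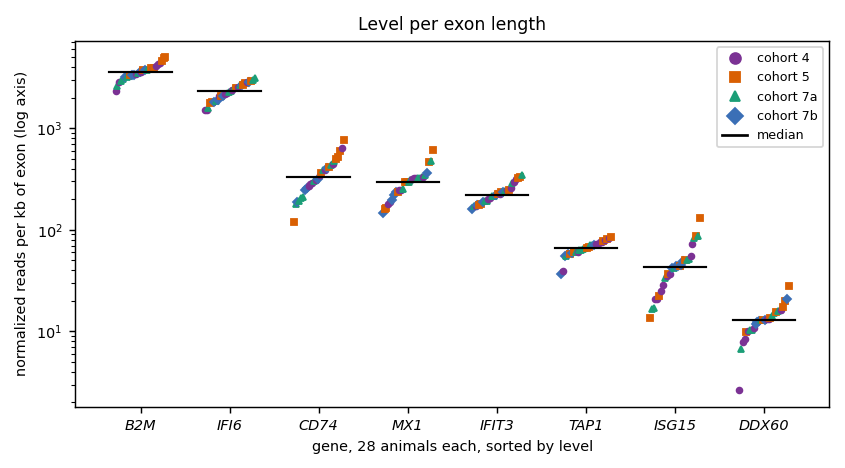
Level of the 8 members in normalized reads per kb of exon (log axis), 1 point per animal coloured by cohort and sorted within a gene, with the median as a line. B2M and IFI6 lie above the other 6 members in all 28 animals, and DDX60 has the lowest median at 13.0.

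Members differed widely in level, and this order was set mainly by 2 abundant genes. Normalized reads are reads multiplied by the authors' upper-quartile factor for the library, and levels of different genes are compared only per kb of exon. B2M had a median level of 3564 normalized reads per kb (range 2306 to 4976), above 98.4% of the tested genes. IFI6 followed with 2309 (range 1503 to 3116), above 97.4% of tested genes. The ranges of B2M and IFI6 overlapped, and both lay wholly above those of the other 6.

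CD74 (median 333, range 119 to 767 per kb), MX1 (297, range 147 to 605) and IFIT3 (221, range 161 to 345) formed a middle group with overlapping ranges. TAP1 had 66.6 per kb (range 36.9 to 84.3), wholly below IFIT3. ISG15 had 42.8 per kb (range 13.6 to 131) and overlapped TAP1. DDX60 was lowest at 13.0 per kb (range 2.66 to 28.2), above 9.94% of tested genes. ISG15 rested on 2 to 67 reads per library and DDX60 on 2 to 145, so counting error weighs most on these 2 members.

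The members lay on 7 chromosomes as the deposited exon table names them, in a build that is not given in the sources used here. MX1 (13 exons) was listed on chromosome 7 from 5183826 to 5212995, IFI6 (5 exons) on chromosome 1 from 26366365 to 26372486, DDX60 (38 exons) on chromosome 4 from 168343574 to 168448318 and ISG15 (2 exons) on chromosome 1 from 118336 to 119492. IFIT3 (2 exons) was on chromosome 10 from 84388094 to 84394938, CD74 (9 exons) on chromosome 5 from 148269721 to 148280657, B2M (4 exons) on chromosome 14 from 21061747 to 21068700 and TAP1 (11 exons) on chromosome 6 from 33563631 to 33571650. Exon 2 carried 98.6% of the IFIT3 signal and 87.7% of the ISG15 signal. Relative exon use, testable in 5 members (B2M, TAP1, IFI6, CD74 and MX1), gave an adjusted p of 1 for each in heavy against low animals (limma's diffSplice F test with Benjamini-Hochberg adjustment), where 0.0917% of the 9817 genes tested were called. None of the 5 had an unadjusted p under 0.05, where 1.73% of genes did.

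**Figure D2:**
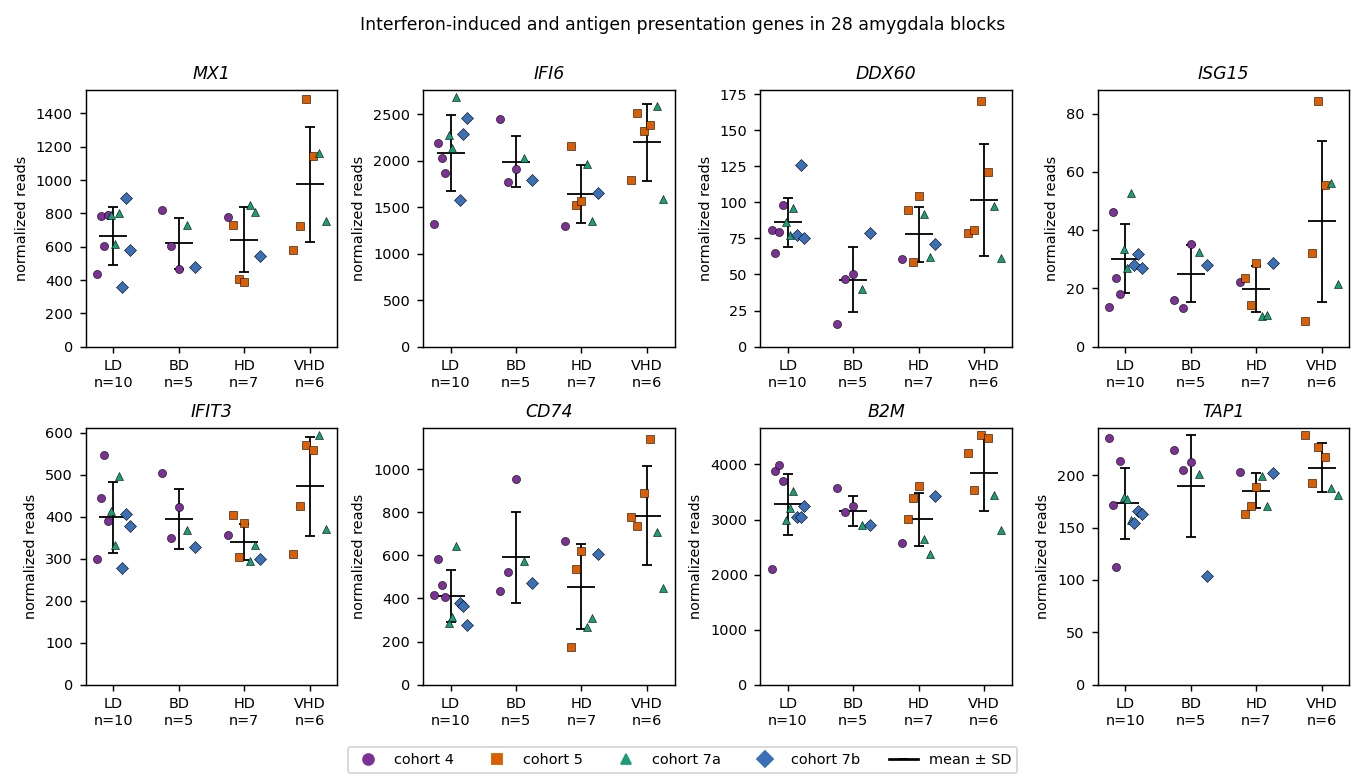
Normalized reads of the 8 members in each animal by drinking category (LD, BD, HD and VHD, 10, 5, 7 and 6 animals), coloured and shaped by cohort, with mean ± SD. The VHD mean is the highest of the 4 for every member, and the VHD points overlap the LD points in all 8 panels.

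Among the interferon-induced genes, no member passed the test in any comparison of categories. MX1 was at 578, 727, 1484, 1147, 1165 and 752 normalized reads in VHD replicates 1 to 6. It ran from 390 to 850 (median 728) in HD, was at 818, 604, 465, 730 and 480 in BD replicates 1 to 5, and ran from 359 to 890 (median 700) in LD. Of the 6 VHD animals, the 3 with the highest CHAT lay above every animal of the other categories, and the other 3 lay inside the LD range. The fitted fold of VHD over LD was 1.56 (95% interval 1.04 to 2.33) for MX1, with 5 of 6 VHD animals above the LD mean (unadjusted p = 0.0330, adjusted p = 0.579, limma with Benjamini-Hochberg adjustment). Without the 3 libraries rich in CHAT it was 1.22 (unadjusted p = 0.321, limma), and within cohort 7a the log2 difference was 0.36, 2 animals against 3. Heavy animals averaged 796 ± 313 normalized reads of MX1 and low animals 649 ± 164 (SD, n = 13 and 15), a fold of 1.17 (0.838 to 1.62).

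IFI6 had its lowest values in HD animals. It ran from 1297 to 2164 normalized reads (median 1567) in HD, and from 1583 to 2585 (median 2354) in VHD. BD replicates 1 to 5 had 2445, 1774, 1907, 2025 and 1796, and LD animals 1315 to 2690 (median 2163). The HD and LD ranges overlapped, and 1 of 7 HD animals was above the LD mean. The fold of HD over LD was 0.726 (0.588 to 0.896, unadjusted p = 0.00441, adjusted p = 0.995, limma), and that of heavy over low was 0.776 (0.633 to 0.950, unadjusted p = 0.0162, adjusted p = 0.998). Heavy animals averaged 1899 ± 449 normalized reads and low animals 2052 ± 361 (SD, n = 13 and 15). The log2 difference between heavy and low animals was −0.55 in cohort 4, −0.32 in cohort 7a and −0.28 in cohort 7b, so it was below 0 in each cohort that held both, although cohorts 4 and 7b contribute 1 heavy animal each. Without the CHAT-rich libraries the fold of heavy over low was 0.729 (unadjusted p = 0.00262, adjusted p = 0.746, limma). Without the 3 shallowest libraries, which include HD replicate 1 of cohort 4, it was 0.808 (unadjusted p = 0.0548, limma). The fold of VHD over LD was 0.918 (0.711 to 1.19) with all animals and 0.796 without the CHAT-rich libraries.

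DDX60 was lowest in binge drinkers. BD replicates 1 to 5 had 16, 47.1, 50.4, 40.3 and 78.8 normalized reads. HD animals ran from 59.0 to 104 (median 71.3), VHD animals from 61.8 to 170 (median 89.0) and LD animals from 64.8 to 126 (median 80.0). Of the 5 BD animals, 4 lay below every LD animal and all 5 below the LD mean, and the value of BD replicate 1 rests on 2 reads. The fold of BD over LD was 0.518 (0.364 to 0.736, unadjusted p = 0.000724, adjusted p = 1.0, limma), and 0.631 (unadjusted p = 0.00695) without the 3 shallowest libraries. The fitted folds of HD and VHD over LD were 0.798 and 0.954, the second at 0.747 without the CHAT-rich libraries. The VHD mean, 102 ± 39.1, was above the LD mean, 86.2 ± 17 (SD, n = 6 and 10). The fold fitted with cohort as a term was below 1 (log2 −0.067), while without that term the log2 fold was 0.18.

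ISG15 and IFIT3 followed MX1 in which VHD animals were high. ISG15 had 8.71, 32.1, 84.3, 55.6, 56.1 and 21.4 normalized reads in VHD replicates 1 to 6, and 10.7 to 28.7 (median 22.4) in HD. BD replicates 1 to 5 had 16, 13.5, 35.2, 32.6 and 28.0, and LD animals 13.5 to 52.8 (median 27.6). VHD held both the highest and the lowest ISG15 value of the study, so its groups overlap. The fold of VHD over LD was 1.07 (0.521 to 2.18) with all animals and 0.589 (unadjusted p = 0.149, limma) without the CHAT-rich libraries. All 7 HD animals were below the LD mean, with a fold of 0.614 over LD.

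IFIT3 had 312, 426, 571, 559, 595 and 371 normalized reads in VHD replicates 1 to 6, and 295 to 405 (median 333) in HD. BD replicates 1 to 5 had 505, 349, 424, 368 and 327, and LD animals 278 to 548 (median 399). Again VHD replicates 3, 4 and 5 were the 3 highest of the 28 animals. The fold of VHD over LD was 1.12 (0.849 to 1.48), and 0.882 without those libraries. The fold of HD over LD was 0.841, with 1 of 7 HD animals above the LD mean. As a description of all 5 interferon-induced members, the mean of their log2 values, each centred over the 28 animals, was highest in VHD replicates 3, 4 and 5 (0.96, 0.67 and 0.66) and lowest in HD replicate 3 (−0.52), LD replicate 1 (−0.47) and VHD replicate 1 (−0.41).

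Of the antigen presentation genes, CD74 had the largest fold of VHD over LD among the 8 members, and it too did not pass the test. CD74 was at 780, 736, 891, 1142, 707 and 446 normalized reads in VHD replicates 1 to 6. It ran from 177 to 669 (median 537) in HD, was at 433, 521, 955, 574 and 472 in BD replicates 1 to 5, and ran from 279 to 644 (median 393) in LD. Of the 6 VHD animals, 5 lay above all LD animals and VHD replicate 6 lay inside their range. The fold of VHD over LD was 1.97 (1.23 to 3.15, unadjusted p = 0.00643, adjusted p = 0.531, limma), with 6 of 6 VHD animals above the LD mean. Without the CHAT-rich libraries it was 1.70 (unadjusted p = 0.0681, limma), and within cohort 7a the log2 difference was 0.54. In heavy against low animals, which averaged 607 ± 265 and 473 ± 172 normalized reads (SD, n = 13 and 15), the fold was 1.15 (0.753 to 1.75). The log2 difference of heavy and low animals was 0.37 in cohort 4, −0.085 in cohort 7a and 0.72 in cohort 7b.

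B2M and TAP1, both of the class I pathway, varied least, with a coefficient of variation of 17.7% and 17.4% over the 28 animals, against 57.2% for ISG15 and 42.3% for CD74. B2M ran from 2810 to 4538 normalized reads (median 3873) in VHD, and from 2373 to 3605 (median 3010) in HD. BD replicates 1 to 5 had 3568, 3141, 3254, 2908 and 2897, and LD animals 2103 to 3985 (median 3231). The B2M fold of VHD over LD was 1.04 (0.842 to 1.27), or 0.952 without the CHAT-rich libraries, and that of HD over LD 0.848 (0.715 to 1.01). TAP1 ran from 181 to 238 (median 205) in VHD, and from 163 to 203 (median 189) in HD. BD replicates 1 to 5 had 224, 205, 212, 201 and 104, the last being the lowest of the study, and LD animals had 112 to 236 (median 169). All 6 VHD animals were above the LD mean of TAP1, 5 of them inside the LD range, and the fold was 1.21 (0.934 to 1.58), or 1.22 without the CHAT-rich libraries.

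**Figure D3:**
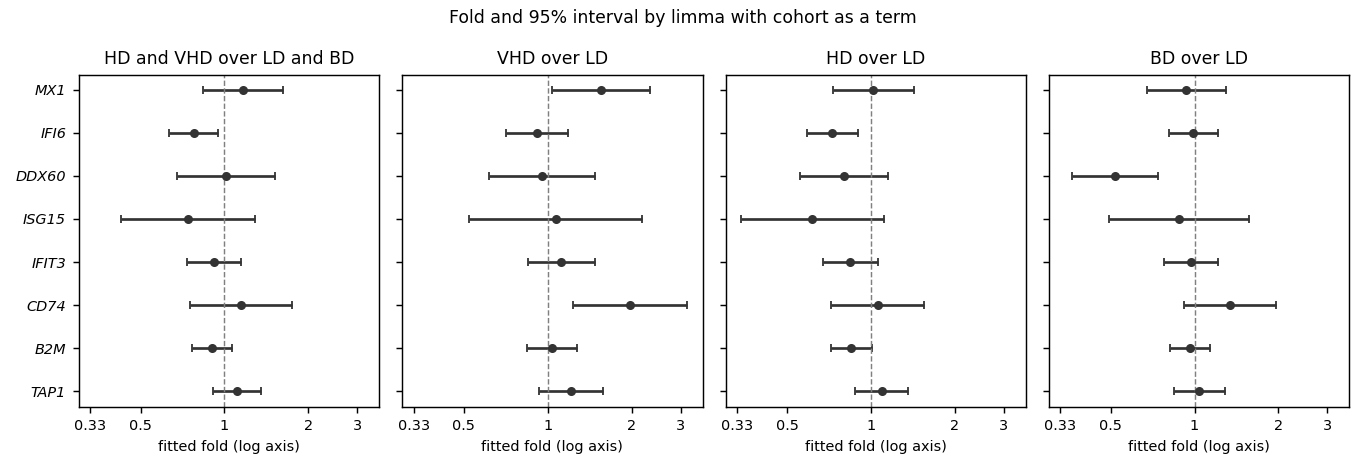
Fitted fold (log axis) of the 8 members with its 95% interval, from limma with cohort as a term, in heavy over low animals and in VHD, HD and BD over LD. The intervals that leave out 1 belong to IFI6 in heavy over low, MX1 and CD74 in VHD over LD, IFI6 in HD over LD and DDX60 in BD over LD, and none of these passed after adjustment over all genes.

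The members called were read against all genes. In heavy against low animals 0 of 8 members passed at an adjusted p under 0.05 and 1 at an unadjusted p under 0.05, where 4.18% of the 13022 tested genes did (limma). For VHD against LD it was 2 of 8 at the unadjusted level, where 8.57% of genes did, for HD against LD 1 of 8 (3.96% of genes) and for BD against LD 1 of 8 (3.52% of genes). edgeR and DESeq2 on the recovered reads gave the same 4 counts of members at the unadjusted level and called 0 members. limma and edgeR called 0 genes in each of these comparisons after adjustment, and DESeq2 called 1, 4, 1 and 0. The median log2 fold of the 8 members was −0.051 in heavy over low, 4 above and 4 below 0, where that of all tested genes was 2.4e-05 and 50% lay above 0. In VHD over LD it was 0.13, 6 above and 2 below 0, where that of all tested genes was 0.013 and 52.5% lay above 0. The VHD and LD ranges overlapped in all 8 members, and did not overlap in 0.0845% of tested genes. In VHD over LD without the CHAT-rich libraries, MX1, CD74 and TAP1 lay above 0 and IFI6, DDX60, ISG15, IFIT3 and B2M below 0. The smallest unadjusted p among the members there was 0.0681 for CD74 (limma), while 3.12% of all genes were under 0.05.

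Between cohorts, B2M had the smallest p among the members. It averaged 3825 ± 590 normalized reads in cohort 5, 3278 ± 657 in cohort 4, 3134 ± 210 in cohort 7b and 2987 ± 391 in cohort 7a (SD, n = 7, 8, 5 and 8). All 7 cohort 5 animals, which ran from 3010 to 4538, lay above the cohort 7a mean, and the ranges of both cohorts overlapped. With category as a term, the fold of cohort 5 over 7a was 1.29 (1.09 to 1.54, unadjusted p = 0.00575, adjusted p = 0.515, limma). B2M was the 1 member at an unadjusted p under 0.05 in that comparison, where 8.12% of genes were, and in the F test over cohorts (unadjusted p = 0.0450, adjusted p = 0.520), where 9.41% were. MX1 had a larger fold in the other direction in cohort 5 over 7a, 0.748 (0.530 to 1.06), with a wider interval. In the oldest cohort, cohort 4, over cohort 7a, 0 members reached an unadjusted p under 0.05, where 9.39% of genes did. The CD74 fold there was 1.42 (0.980 to 2.07). For cohort 7b over 7a the number was also 0, where 4.71% of genes did. The difference between heavy and low animals did not pass the test of a difference between cohorts in any member (adjusted p of 0.881 to 0.983 by limma, 0 of 8 members at the unadjusted level and 6.1% of genes).

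Other genes of the pathways were counted from lists. Of 47 other interferon-induced genes, 39 were tested and 0 passed in either direction. In VHD over LD, 30 lay above and 9 below 1, with a median log2 fold of 0.20. Without the CHAT-rich libraries 18 lay above and 21 below 1 and the median was −0.044. The count thus depended on whether those 3 libraries were kept. They also had the highest mean of the interferon-induced members, so leaving them out removed the top of that range. In heavy over low 17 lay above and 22 below 1. CMPK2, a nucleotide kinase, had a fold of 0.701 of VHD over LD, RSAD2, the antiviral enzyme viperin, 0.653, and BST2, which tethers virions to the cell surface, 1.40. These 3 of 39 had an unadjusted p under 0.05, where 8.57% of all genes did, and their folds were 0.802, 0.764 and 1.2 without the CHAT-rich libraries. In heavy over low, the 4 genes with the smallest p were DTX3L (0.834), XAF1 (0.724), GBP1 (1.37) and IFIT5 (1.08).

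Of 20 genes for interferon receptors and signalling, 17 were tested and 0 passed. The 10 above and 7 below 1 in VHD over LD had a median log2 fold of 0.061, and IRF2, a transcription factor that binds interferon response elements, had a fold of 1.24 (unadjusted p = 0.00916, adjusted p = 0.531, limma). With the CHAT-rich libraries left out, 8 lay above and 9 below 1, and IRF2 was at 1.16. Of 15 sensors of nucleic acid and their adaptors, 13 were tested and 0 passed, with 6 above and 7 below 1 in heavy over low and 7 above and 6 below 1 in VHD over LD (median log2 fold 0.033). IFI16, a DNA sensor with the smallest p of this list, had a fold of 1.27 in heavy over low and 1.46 in VHD over LD (adjusted p = 0.998 and 0.542, limma). Leaving out the CHAT-rich libraries gave 6 above and 7 below 1 in VHD over LD, and 1.24 for IFI16.

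The partners of the antigen presentation members were counted in the same way. Of 27 class I genes 13 were tested, and in VHD over LD 5 lay above and 8 below 1, with a median log2 fold of −0.10. Of 31 class II genes 15 were tested, with 11 above and 4 below 1 and a median of 0.30. The folds of both lists overlapped, 0 of either list passed, and the lists were not tested against each other. Without the CHAT-rich libraries 4 class I genes lay above and 9 below 1 (median −0.066), and 9 class II genes above and 6 below 1 (median 0.14). MAMU-DRA, the class II alpha chain, had 96.3 to 270 normalized reads (median 194) in VHD and 73.0 to 175 (median 114) in LD, a fold of 2.06 (1.18 to 3.58, unadjusted p = 0.0129, adjusted p = 0.537, limma). CIITA, the master regulator of class II transcription, had a fold of 1.94, MAMU-DRB1 1.84 and MAMU-DQA1 6.10 (adjusted p = 0.531, 0.537 and 0.522). The folds without the CHAT-rich libraries were 1.83 for MAMU-DRA, 1.65 for CIITA, 1.96 for MAMU-DRB1 and 6.38 for MAMU-DQA1. Among the 6 class II genes below 1 there, MAMU-DOA was at 0.684 and CTSS at 0.846. In VHD over LD 5 of the 15 class II genes had an unadjusted p under 0.05, where 8.57% of all genes did (limma). Without the CHAT-rich libraries 2 of 15 did, where 3.12% of all genes did. MAMU-DQA1 had a median of 3.09 normalized reads and was at 0 in 3 libraries. The class II DRB genes exist in several similar copies, so reads may be split or shared among those.

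Markers of other cells were read beside these values. The sum of 14 microglia markers ran from 5153 to 7395 (median 6695) in VHD and from 4982 to 6763 (median 5695) in LD, and 0 of the 14 passed, with 8 above and 6 below 1 in VHD over LD (5 and 9 without the CHAT-rich libraries). That of 8 oligodendrocyte markers ran from 61829 to 118905 (median 87278) in VHD and from 40770 to 88228 (median 53052) in LD, with 8 of 8 above 1 with and without the CHAT-rich libraries and 0 passing. Central amygdala markers lay the other way, 13 of 14 below 1, among them PENK at a fold of 0.159 (11 of 14 and 0.188 without the CHAT-rich libraries). Their part in the member folds was not tested. Among blood cell markers, S100A8 of neutrophils was at 0 in all 28 libraries and S100A9 in 21, the T cell marker CD3D was at 0 in 15 and the B cell markers CD79A and CD79B in 18 and 24. Other markers of these lists were at 0 in no library, such as CD8A (median 79.6), IL7R (22.3), TNFRSF17 (42.0), PAX5 (8.36), CD14 (84.6) and LYZ (124). The summed markers of T and NK cells ran from 92.9 to 178 in VHD and from 97.7 to 198 in LD, those of B cells from 55.2 to 92.9 and from 49.1 to 73.2. Of 12 T and NK markers only 2, CD8A and IL7R, passed the filter. CD8A alone had a median of 79.6 beside a median of 112 for the sum, so this sum rests mainly on CD8A.

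**Figure D4:**
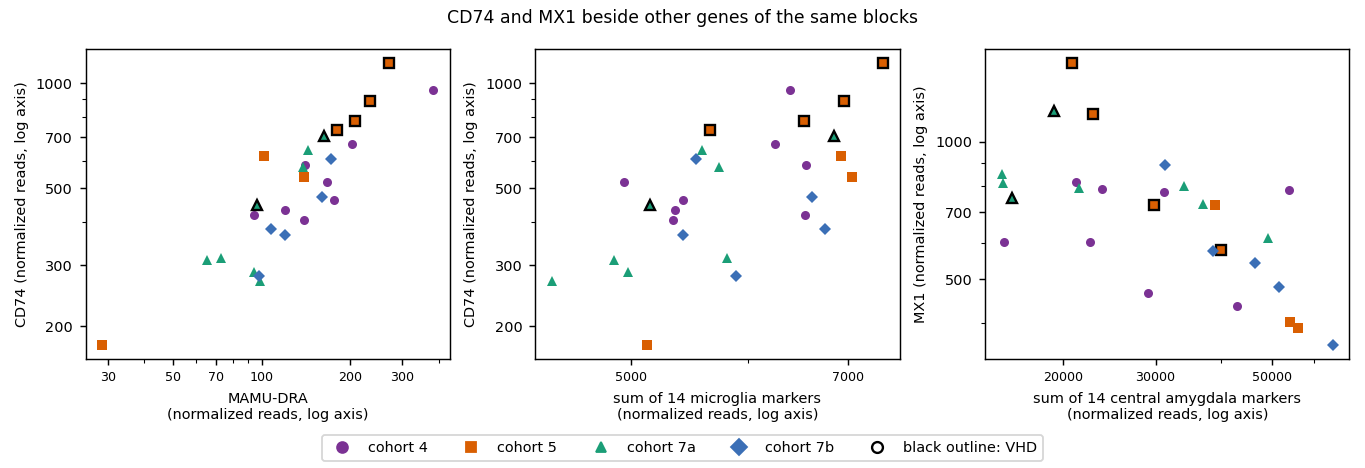
CD74 against MAMU-DRA, CD74 against the sum of 14 microglia markers, and MX1 against the sum of 14 central amygdala markers, in normalized reads on log axes, 1 point per animal, shaped by cohort and outlined in black for VHD. CD74 runs with MAMU-DRA from the HD animal at 177 to the VHD animal at 1142, while MX1 is highest in animals with a low sum of these listed markers. Within cohort 4 the r of MX1 with this sum was −0.105.

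Each member was set against 5 marker sums and CHAT, 48 relations in all, of which 8 had an adjusted p under 0.05 for Pearson's r and 4 for Spearman's rho (permutation tests with 100000 resamples, two-sided, Benjamini-Hochberg over the 48). MX1 was inversely related to the central amygdala sum (r = −0.643, rho = −0.683, adjusted permutation p of r 0.00648), at −0.588 without the 2 farthest animals and at −0.618 without the 3 CHAT-rich libraries. Within cohorts this r was −0.977 in cohort 5, −0.554 in cohort 7a and −0.105 in cohort 4, so it did not hold in cohort 4. CD74 was related to the microglia sum (r = 0.633, rho = 0.605, adjusted permutation p of r 0.00648), at 0.531 without the 2 farthest and 0.514 without the CHAT-rich libraries. Here all 3 cohorts had a positive r (0.756 in cohort 5, 0.772 in cohort 7a and 0.471 in cohort 4). ISG15 was related to CHAT itself (r = 0.611, rho = 0.621, adjusted permutation p of r 0.0112), at 0.669 in cohort 5, 0.905 in cohort 7a and 0.0368 in cohort 4, and at 0.447 without the CHAT-rich libraries. The other 5 were CD74 with oligodendrocyte markers (r = 0.566) and with CHAT (0.513), DDX60 with CHAT (0.519), and IFIT3 (0.505) and MX1 (0.490) with oligodendrocyte markers. These 5, without the CHAT-rich libraries, were at 0.385, 0.354, 0.389, 0.197 and 0.133. Some relations that did not pass were larger in size without the CHAT-rich libraries. For MX1, r went from −0.179 to −0.729 with the microglia sum and from 0.340 to 0.635 with the neuron sum. The values without the CHAT-rich libraries were not tested.

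**Figure D5:**
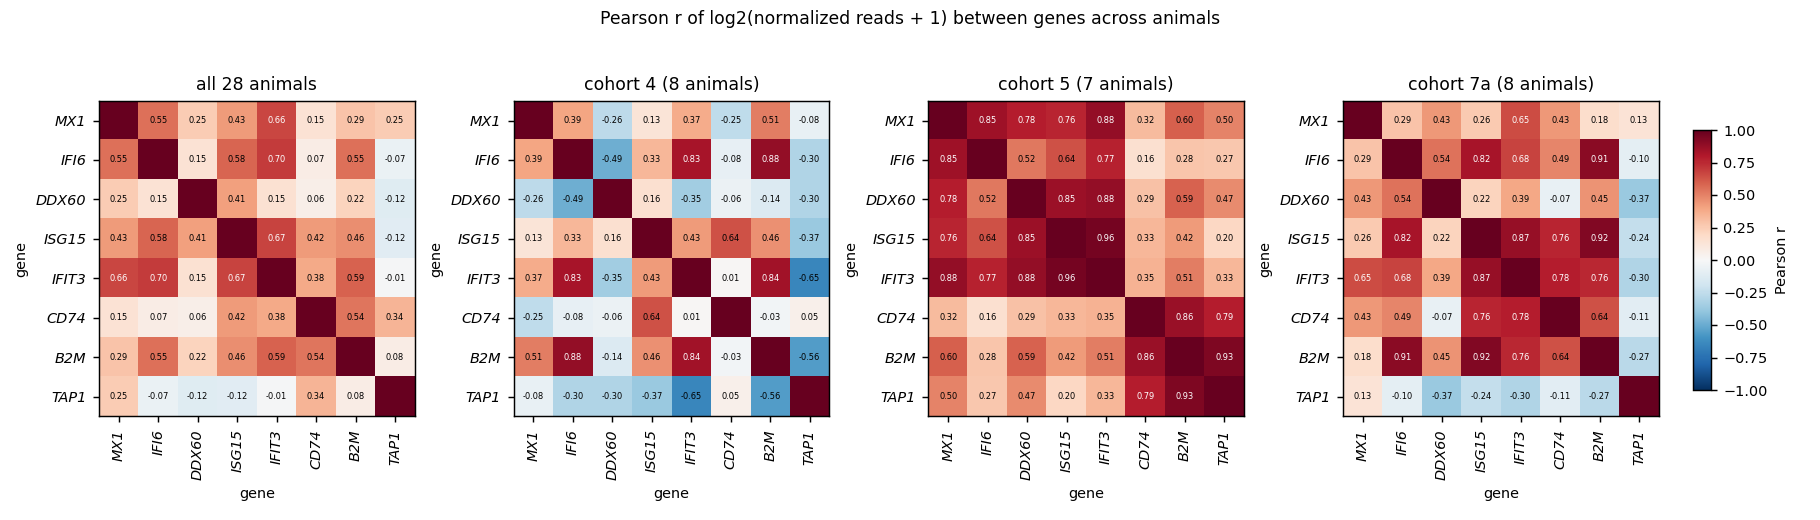
Pearson r of log2(normalized reads + 1) between members over all 28 animals and within cohorts 4, 5 and 7a (8, 7 and 8 animals), as colour from −1 to 1 with the value in each cell. The block of IFI6, ISG15 and IFIT3 is red in all 4 maps, while TAP1 is red with the other 7 members only in cohort 5.

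The members varied together across animals to a degree that rested on few libraries. Over the 28 pairs of the 8 members the median r was 0.314, and 8 pairs (28.6%) had an r of at least 0.5, where 6.2% of the 84779731 pairs of tested genes did (median r 0.0035). The permutation test gave an adjusted p under 0.05 for 9 pairs (two-sided, 100000 resamples, Benjamini-Hochberg over 28). Without the 3 CHAT-rich libraries the median r was 0.0815, 2 pairs (7.14%) had an r of at least 0.5, where 6.73% of all pairs did, and 1 pair passed. The 3 libraries left out were the ones with the highest interferon mean, so this split removed the top of that range. The cause of the drop was not tested.

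The pair that passed with and without these libraries was IFI6 and IFIT3. Their r was 0.700 over 28 animals (rho = 0.739, adjusted permutation p 0.00103), 0.705 without the 2 farthest animals, 0.644 without the CHAT-rich libraries (adjusted permutation p 0.0168), and 0.828, 0.768 and 0.678 within cohorts 4, 5 and 7a. ISG15 and IFIT3 had an r of 0.672 (rho = 0.640, adjusted permutation p 0.00103), 0.60 without the 2 farthest and 0.482 without the CHAT-rich libraries. Within cohorts it was 0.429, 0.958 and 0.872. MX1 and IFIT3 had an r of 0.664 (rho = 0.574, adjusted permutation p 0.00103), 0.557 without the 2 farthest and 0.445 without the CHAT-rich libraries, and 0.375, 0.878 and 0.651 within cohorts. IFIT3 was thus in 4 of the 9 pairs.

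B2M varied with 4 members, 3 of them interferon-induced. Its r was 0.591 with IFIT3 (rho = 0.589, adjusted permutation p 0.00717), 0.552 with IFI6 (rho = 0.467), 0.463 with ISG15 (rho = 0.384) and 0.537 with CD74 (rho = 0.555). By rho the pair with ISG15 did not pass (adjusted permutation p 0.102), and its call by r was lost in 7 of the 28 fits that left out 1 animal. The 4 r without the CHAT-rich libraries were 0.465, 0.501, 0.25 and 0.379. Within cohorts 4, 5 and 7a the r of B2M was 0.843, 0.513 and 0.756 with IFIT3, 0.877, 0.278 and 0.905 with IFI6, 0.459, 0.423 and 0.922 with ISG15, and −0.031, 0.864 and 0.639 with CD74. The pair of CD74 and B2M therefore did not hold in cohort 4. The remaining 2 of the 9 pairs were IFI6 with ISG15 (r = 0.579, rho = 0.592) and MX1 with IFI6 (r = 0.549, rho = 0.554).

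DDX60 and TAP1 were in none of the 9 pairs. The 10 pairs among the 5 interferon-induced members had a median r of 0.488, the 3 antigen presentation pairs 0.340 and the 15 pairs across the 2 groups 0.222. Cohorts differed: the median r over the 28 pairs was −0.011 in cohort 4, with 14 pairs below 0, 0.556 in cohort 5, with 0 below 0, and 0.433 in cohort 7a, with 7 below 0. Cohort 5 holds VHD replicates 3 and 4, cohort 7a holds VHD replicate 5 and cohort 4 holds no VHD animal. Cohort 7b, with 5 animals, was too small for a correlation.

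As a description with no test, the tested genes outside the set most like the members were found over the 28 animals. Their libraries differed in depth and in the levels of cell markers, and the part of these in the correlations was not tested. With the interferon mean they were ELFN1 (r = 0.839), ACLY (0.831), EML2 (0.825), TTC39A (0.817), PARP3 (0.816), THAP10 (0.813), SKOR1 (0.809), RET (0.803), SLC6A11 (0.799) and SQSTM1 (0.796). None of these 10 was on a list of interferon or antigen presentation genes. Without the 3 CHAT-rich libraries their r ran from 0.556 for RET, a growth factor receptor of neurons, to 0.768 for THAP10. SKOR1 was low in level, from 0 to 52.7 normalized reads.

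For CD74 the closest gene was MAMU-DRA (r = 0.882, and 0.865 without the CHAT-rich libraries), the chain that CD74 accompanies, followed by EEF1D (0.755), RCBTB1 (0.746), FKBP10 (0.744) and FAM189A2 (0.742). Centred within cohorts, the r of CD74 and MAMU-DRA was 0.918. For B2M the closest genes were PROS1 (0.761), RAB18 (0.751), GIMAP2 (0.744), MYL6 (0.736) and EMC2 (0.731). GIMAP2 ran from 2.24 to 18.9 normalized reads, so counting error weighs on its r. For TAP1 the closest genes were TBCE (0.656), PSME4 (0.624), ZNF30 (0.622), MTRNR2L4 (0.610) and ZC3H10 (0.601). MTRNR2L4 ran from 0.876 to 160 normalized reads, so counting error weighs on its r too.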

How the data were processed

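Per the labels' protocols, stranded total RNA libraries were sequenced on an Illumina HiSeq instrument. The submitters' processing notes name CASAVA, FastQC, STAR 2.3.0e and edgeR, and for the build, annotation and strand setting the sources used here give nothing. In the deposited gene table the value is a signal, reads per gene times the authors' upper-quartile factor (100% of values whole reads within 0.02), and in the deposited exon table it is the same as a rounded score. Of 30 columns, 2 were not used. limma 3.58.1 (R 4.3.3, trend) tested log2(value + 1) in 13022 genes, two-sided, with Benjamini-Hochberg adjustment and a threshold of 0.05. edgeR 4.0.16 and DESeq2 1.42.0 ran on recovered reads. Permutations (100000) used numpy 2.4.6, and ranks for Spearman's rho used scipy 1.17.1. The scripts were tested on simulated data. Replicate numbers follow sample order and pair nothing. No label says more on separate sampling than 1 animal per library.

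The members and lists were chosen with earlier results of these data known. The rule named all members, up to 4 genes per list by smallest p in heavy against low, the 10 genes closest to the interferon mean and the 5 closest to each of CD74, B2M and TAP1. Genes named for VHD against LD, CHAT and the cell markers were chosen after their values were seen.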

Additional observations from a re-analysis of the deposited data

Results flagged for a closer look

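Of 64 groups of 4 to 10 animals checked, 5 had 1 animal far from the rest of its group, and chance flags about 1 in 20 groups. CD74 was at 955 normalized reads in BD replicate 3, where the next highest of 5 was 574. TAP1 was at 104 in BD replicate 5, where the next lowest of 5 was 201. B2M was at 2103 in LD replicate 1, the second shallowest library, where the next lowest of 10 was 2992. MX1 was at 1165 in VHD replicate 5, the highest of cohort 7a, where the next of 8 was 850. DDX60 was at 126 in LD replicate 9, the highest of cohort 7b, where the next of 5 was 78.8. These values were not weighed further.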

How the results depend on the processing

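Over all alternatives, 1986 of 2049 log2 folds of members kept their direction and side of the threshold, and 63 changed sign. Of 896 pair correlations 828 did, 20 lost and 20 gained a call and 28 changed sign. Without a cohort term the log2 folds became 0.054 for B2M in heavy over low (−0.14 with it), 0.081 for IFI6 and 0.18 for DDX60 in VHD over LD (−0.12 and −0.067), and −0.060 for MX1 in HD over LD (0.025). DDX60 in heavy over low was −0.056 with edgeR and −0.051 with DESeq2 (0.023 with limma). DESeq2 called 1 gene in heavy over low, 4 in VHD over LD, 1 in HD over LD, 19 between cohorts, 1 in cohort 4 and 4 in cohort 5 over 7a, and 2 in the interaction, and the interaction had 26 genes with no filter. Exon usage gave 4 genes with a pseudocount of 8 and 14 without the 3 shallowest libraries (9 otherwise). Without these libraries the log2 folds were −0.013 for DDX60 in heavy over low, −0.073 for ISG15 in VHD over LD, and −0.10 for MX1 and −0.061 for CD74 in HD over LD, and r was 0.0344 for IFI6 and TAP1, 0.0458 for DDX60 and TAP1 and 0.0173 for IFIT3 and TAP1. In cohort 7a alone CD74 had −0.085 in heavy over low. Centring within cohorts gave −0.0636 for B2M and TAP1. Without the 3 CHAT-rich libraries the log2 folds were −0.041 for DDX60 in heavy over low, −0.76 for ISG15, −0.18 for IFIT3 and −0.071 for B2M in VHD over LD, and −0.046 for TAP1 in cohort 5 over 7a. There 1 pair passed, and r was −0.0669 for MX1 and DDX60, −0.258 for MX1 and CD74, −0.0359 for MX1 and B2M, −0.00647 for IFI6 and DDX60, −0.133 for IFI6 and CD74, −0.172 for DDX60 and IFIT3, −0.222 for DDX60 and CD74, −0.0214 for DDX60 and B2M, and −0.0854 for B2M and TAP1. The cause of these changes was not tested. A filter of 50 left ISG15 untested, and the interaction could not be fitted without HD replicate 1 or HD replicate 7.

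With each animal left out in turn, these values changed sign or count. In VHD over LD the log2 folds ranged from −0.036 to 0.13 for B2M, −0.17 to 0.11 for DDX60, −0.26 to 0.039 for IFI6, −0.013 to 0.28 for IFIT3 and −0.24 to 0.35 for ISG15. They ranged from −0.12 to 0.11 for DDX60 in heavy over low, −0.16 to 0.26 for CD74 and −0.058 to 0.10 for MX1 in HD over LD, and −0.10 to 0.054 for IFI6, −0.12 to 0.021 for IFIT3 and −0.059 to 0.27 for TAP1 in BD over LD. In cohort 5 over 7a the ranges were −0.029 to 0.21 for IFI6, −0.028 to 0.20 for IFIT3, −0.033 to 0.44 for ISG15 and −0.038 to 0.067 for TAP1, and in cohort 7b over 7a −0.048 to 0.12 for B2M, −0.061 to 0.40 for CD74, −0.097 to 0.30 for ISG15 and −0.28 to 0.021 for TAP1. Pearson r ranged from −0.000283 to 0.235 for B2M and TAP1, −0.0508 to 0.124 for DDX60 and CD74, −0.229 to 0.0266 for DDX60 and TAP1, −0.00264 to 0.135 for IFI6 and CD74, −0.133 to 0.0259 for IFI6 and TAP1 and −0.120 to 0.175 for IFIT3 and TAP1. Genes called ranged from 0 to 1 in HD over LD (1 without HD replicate 5) and in VHD over LD (1 without VHD replicate 6), 0 to 11 in cohort 4 over 7a and 0 to 40 between cohorts (both highest without LD replicate 2), and 0 to 77 in the interaction (highest without LD replicate 1). No paired analysis was possible because the replicate numbers follow sample order. Depth limits ISG15 and DDX60 most, at 2 reads in the shallowest library.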
